A study of Mus musculus with 65 samples.

Results

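The IHO1 peaks of testes without MEI4 were set against the IHO1 peaks of wild-type testes. The wild-type list held 1589 peaks and the Mei4KO list 1036, together 2625 of the 92258 peaks and hotspots in the 23 lists analysed. A peak was called shared where an interval of the other list overlapped it by at least 1 bp. By that rule 450 wild-type peaks were found in Mei4KO (28.3%, Wilson 95% interval 26.2 to 30.6) and 1139 were wild-type only. In the other direction, 449 Mei4KO peaks were found in the wild type (43.3%, 40.4 to 46.4) and 587 were Mei4KO only. These counts are fixed by the rule and serve as the description of the classes.

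The series is chromatin immunoprecipitation with sequencing of whole mouse testis, with 65 samples in 36 groups of an antibody and a genotype. All mice carried the C57BL/6JCrl background; the groups used here were wild-type, Mei4tm1Bdm (Mei4KO), B6;129P2-Prdm9tm1Ymat/J (Prdm9KO), Spo11tm1Mjn (Spo11KO), Hormad1tm1.2Atot (Hormad1KO) and Iho1tm1.2Atot (Iho1KO). In every group, male pups aged 1.5 days were fed an inhibitor of retinoic acid for 7 to 10 days, then injected once with retinoic acid, and testes were taken 8 days later. Per the labels, 80 to 95% of the cells were then leptotene and zygotene spermatocytes. The lists hold no expression values, so that stage was not checked here. The testis was taken whole, so the remaining cells contributed chromatin too. Each IHO1 group has 2 samples and 1 peak list. The list is attached to replicate 1, and any pooling of the replicates is not given in the sources that were used. According to the series' design text, the signal of Iho1KO was subtracted from the IHO1 data of both genotypes. The IHO1 lists hold positions alone, without a strength, and their depth is unknown.

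IHO1 and MEI4 are partner proteins of SPO11, the enzyme that makes the programmed DNA double-strand breaks from which meiotic recombination starts. IHO1 binds HORMAD1 on the chromosome axis, the protein core that also contains SYCP3, and MEI4 forms a complex with REC114 that is needed for breaks. In mice, breaks fall at hotspots chosen by the DNA-binding protein PRDM9, and DMC1 coats the single-stranded DNA there, so that DMC1 maps the hotspots. CTCF, an architectural DNA-binding protein, marks another kind of site along chromosome loops.

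The sequences of 5 promoters under the peaks are shown as examples of where the consensus of CTCF lies in such a window. They were picked after their values were seen, 4 of them because they held the consensus, which most promoters under peaks did not hold. Each is the RefSeq window on GRCm38.p6 from 250 bases before to 50 after the gene's start, written along the gene's strand. Capitals mark the match to the core CTCF consensus CCANNAGNNGGC, which has 12 letters, 8 of them fixed, and was searched on both strands. Zfp961, a zinc-finger gene, was picked for its hotspot. Its window at chr8:71950816-71951115 lay under a wild-type-only peak with MEI4 and wild-type HORMAD1, at a hotspot with a DMC1 value of 5177, and held no match. Gm12273, a gene that is not protein-coding, and Vmn2r29, of the multigene family of vomeronasal receptors, lay under shared peaks. Their windows at chr11:61950667-61950966 and chr7:7278240-7278539 held the consensus at base 147 and base 23 of the window, under CTCF peaks with scores of 4.07 and 4.05. Gm32898, a gene that is not protein-coding, and Pdzd9, which encodes a PDZ-domain protein, lay under Mei4KO-only peaks. Their windows at chr10:94623655-94623954 and chr7:120670294-120670593 held it on the opposite strand at bases 172 and 246, under CTCF peaks with scores of 4.66 and 4.07. Vmn2r29 and Pdzd9 had HORMAD1 peaks in both genotypes, Gm32898 in Mei4KO alone and Gm12273 in neither.
Zfp961: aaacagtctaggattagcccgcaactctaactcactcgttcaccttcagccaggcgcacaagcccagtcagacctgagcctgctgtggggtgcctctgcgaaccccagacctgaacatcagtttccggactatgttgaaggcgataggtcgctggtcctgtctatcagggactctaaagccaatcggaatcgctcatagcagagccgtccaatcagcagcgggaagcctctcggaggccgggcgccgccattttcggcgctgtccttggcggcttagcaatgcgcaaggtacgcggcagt
Gm12273: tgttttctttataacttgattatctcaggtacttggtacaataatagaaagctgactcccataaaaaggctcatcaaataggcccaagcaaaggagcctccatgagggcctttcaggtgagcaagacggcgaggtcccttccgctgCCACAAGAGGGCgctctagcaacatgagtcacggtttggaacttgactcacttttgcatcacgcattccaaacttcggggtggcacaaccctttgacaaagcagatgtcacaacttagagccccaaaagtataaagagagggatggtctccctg
Vmn2r29: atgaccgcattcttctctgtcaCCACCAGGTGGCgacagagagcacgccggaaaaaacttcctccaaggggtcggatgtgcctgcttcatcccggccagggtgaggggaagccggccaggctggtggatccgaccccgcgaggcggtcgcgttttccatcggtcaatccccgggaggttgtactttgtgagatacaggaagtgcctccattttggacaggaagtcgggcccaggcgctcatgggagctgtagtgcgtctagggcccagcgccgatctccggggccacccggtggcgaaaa
Gm32898: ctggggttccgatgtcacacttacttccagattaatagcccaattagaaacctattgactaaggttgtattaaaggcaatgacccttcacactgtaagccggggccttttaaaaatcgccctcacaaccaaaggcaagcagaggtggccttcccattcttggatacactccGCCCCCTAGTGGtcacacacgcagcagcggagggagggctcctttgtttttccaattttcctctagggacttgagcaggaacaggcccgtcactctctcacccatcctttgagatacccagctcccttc
Pdzd9: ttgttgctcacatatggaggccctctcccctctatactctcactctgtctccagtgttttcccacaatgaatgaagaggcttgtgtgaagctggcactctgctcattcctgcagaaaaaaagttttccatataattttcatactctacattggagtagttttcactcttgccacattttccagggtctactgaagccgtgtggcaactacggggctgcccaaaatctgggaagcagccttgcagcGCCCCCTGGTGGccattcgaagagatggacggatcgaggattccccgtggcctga

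The consensus was found in 4 of 79 promoter windows that lay wholly inside wild-type-only peaks (5.06%, 1.99 to 12.3), in 6 of 62 inside shared peaks (9.68%, 4.51 to 19.5) and in 9 of 65 inside Mei4KO-only peaks (13.8%, 7.46 to 24.3). Of all 32817 distinct windows of that length, 796 held it (2.43%). The intervals of the 3 classes overlapped. Restricted to windows at CTCF peaks, the counts were 3 of 19, 3 of 27 and 5 of 25, beside 249 of 4261 such windows in all (5.84%). A match describes the letters of a window and not a bound site.

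Wild-type peaks at hotspots were rarely found without MEI4, and fewer than 50% of the others were found. The counts were 21 of 645 at hotspots (3.26%) and 429 of 944 elsewhere (45.4%). Of the wild-type-only peaks, 624 of 1139 lay at a wild-type DMC1 hotspot (54.8%, 51.9 to 57.7). Of the shared peaks, 21 of 450 did (4.67%, 3.07 to 7.03), and of the Mei4KO-only peaks 21 of 587 (3.58%, 2.35 to 5.41). Over the whole list, 4.14% of the 13808 hotspots had a wild-type IHO1 peak and 0.282% had a Mei4KO IHO1 peak. The difference between shared and wild-type-only peaks was -50.1 percentage points (Newcombe 95% interval -53.4 to -46.4), and between Mei4KO-only and wild-type-only peaks -51.2 points (-54.3 to -47.8). Shared and Mei4KO-only peaks differed by -0.431 points (-2.98 to 1.91), an interval that includes 0. A difference was called where its interval excluded 0. With 1 list per genotype there is no replicate check, and intervals cover counting error over peaks only, treating peaks as independent.

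**Figure D1:**
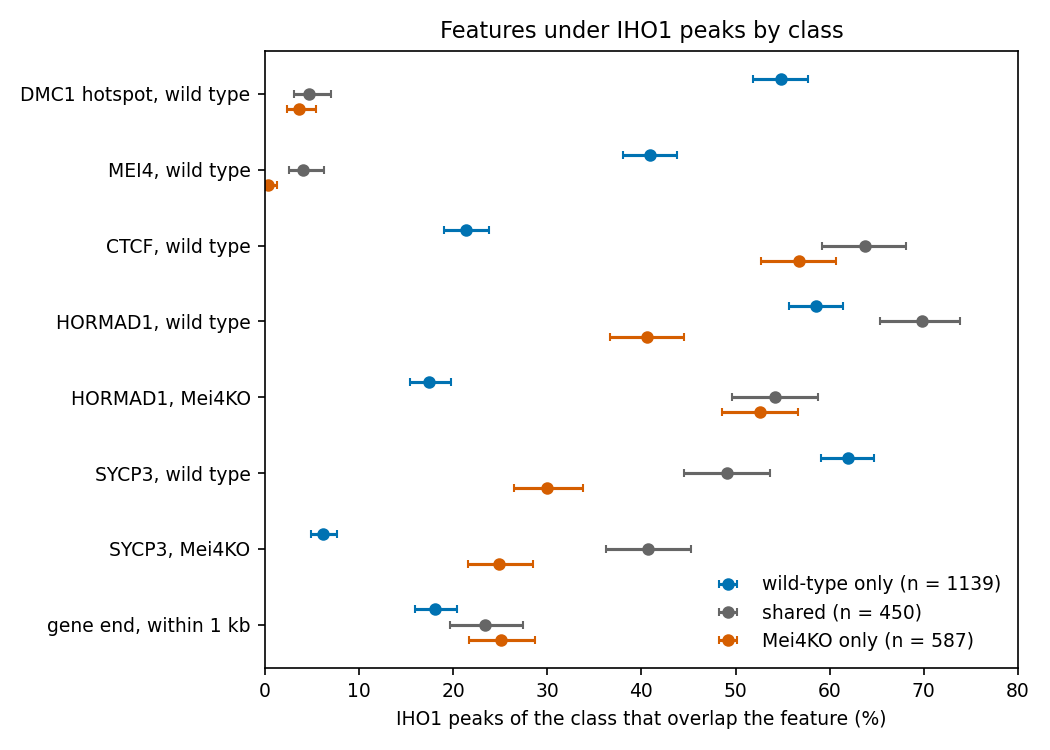
Share of IHO1 peaks in each class (horizontal axis, percent) that overlapped each feature (vertical axis), with bars for Wilson 95% intervals and colours for the 1139 wild-type-only, 450 shared and 587 Mei4KO-only peaks. Wild-type-only peaks stand apart at hotspots (54.8%) and MEI4 peaks (40.9%), and the intervals of shared and Mei4KO-only peaks overlap at hotspots and at the HORMAD1 peaks of Mei4KO.

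The hotspots under the classes also differed in heat. The DMC1 value is the authors' own, in a unit they did not name, and its median over all hotspots was 129. Hotspots under wild-type-only peaks had a median DMC1 value of 3628 (exact binomial 95% interval 3427.5 to 3819.5). Under the 21 shared peaks the median was 324 (108.5 to 2460.5), but 108.5 over the 9 in the first 50% of rows and 191.25 over the 12 in the wider 50% of peaks. Under the 21 Mei4KO-only peaks it was 59 (45 to 284), below the median of the list. Hotspots with IHO1 in Mei4KO were thus mostly weaker than those that had it in the wild type alone. Of the 1380 hotspots in the top class of 10 by DMC1 value, 508 had a wild-type IHO1 peak (36.8%, 34.3 to 39.4) and 7 had a Mei4KO peak (0.507%, 0.246 to 1.04). In the class just below, 15 of 1381 had one in the wild type (1.09%) and 4 in Mei4KO (0.290%). With 4 classes, the strongest 3452 hotspots had a wild-type peak in 15.3% and a Mei4KO peak in 0.377%. In Mei4KO the weakest 3452 were at 0.290%, with an interval of 0.157 to 0.532 that overlapped that of the strongest, 0.2202 to 0.643.

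**Figure D2:**
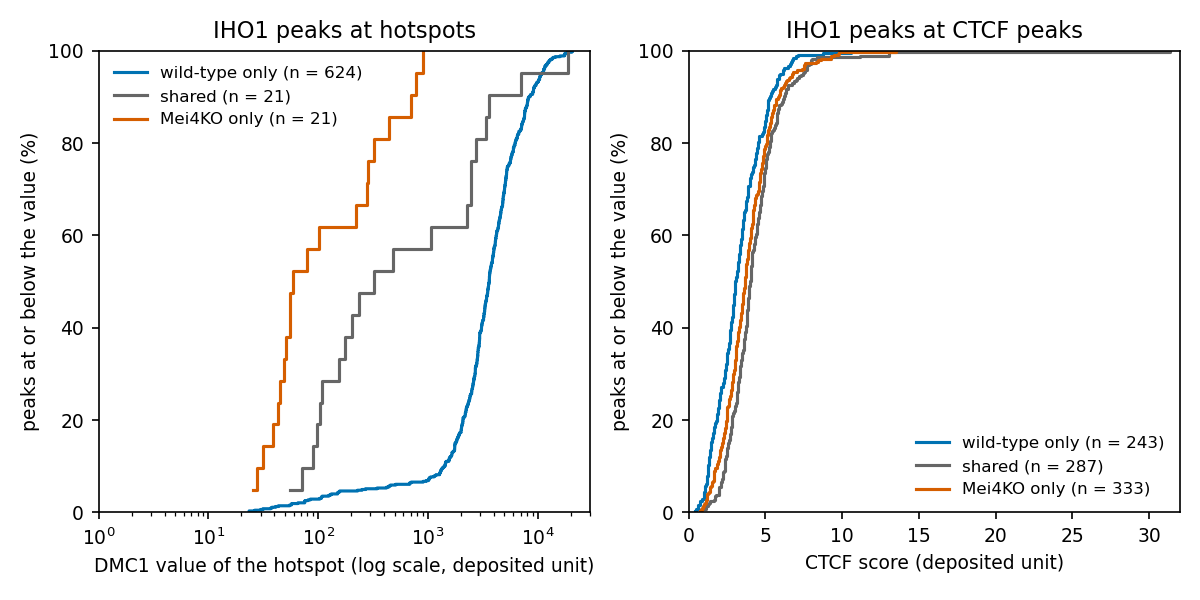
Cumulative share of peaks (vertical axis, percent) by the DMC1 value of the hotspot underneath (left, log axis, deposited unit) and by the score of the CTCF peak underneath (right, deposited unit), with a line for each class. At hotspots the Mei4KO-only line, whose highest value is 900, lies far to the left of the wild-type-only line with its median of 3628, and at CTCF peaks the wild-type-only line lies to the left of the other two.

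The 5 wild-type-only peaks with the highest DMC1 value are given site by site. Coordinates are of mm10, and the gene table gives gene bodies only, so exons and introns were not analysed here. The hottest lay in Ankfn1 at chr11:89607570-89616591 with a DMC1 value of 20822.5. The next lay in Dennd1a, a regulator of endocytic traffic, at chr2:38136911-38141589 (20513.5). The third lay in Erbb4, the receptor tyrosine kinase for neuregulins, at chr1:68485797-68492006 (18961). The remaining pair, at chr1:67959373-67965397 (18266.5) and chr2:98106143-98108602 (17661.5), lay outside protein-coding genes and over 1 kb from any of them. Genes that are not protein-coding were not looked up for the named sites. All 5 had MEI4, HORMAD1 and SYCP3 peaks in the wild type, and none had a HORMAD1 or SYCP3 peak in Mei4KO. All 5 were in the IHO1 list of Hormad1KO.

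The exceptions, hotspots with IHO1 in both genotypes, were headed by a peak in Nedd1, which recruits gamma-tubulin to centrosomes, at chr10:92677067-92684824 with a DMC1 value of 18957.5. It had HORMAD1 and SYCP3 peaks in the wild type and an SYCP3 peak but no HORMAD1 peak in Mei4KO, and no MEI4 peak in the wild type. The second, at chr14:96952785-96954342 (7012), and the third, at chr10:93951448-93958580 (3632), had wild-type MEI4 and lay outside protein-coding genes. Neither kept a HORMAD1 or SYCP3 peak in Mei4KO. The hottest hotspots under Mei4KO-only peaks had values of 900 (chr2:152614539-152616452), 784 (chr4:126308298-126310438, in Col8a2, a collagen gene) and 706 (chr3:16025098-16025699). The first of these had HORMAD1 and SYCP3 in both genotypes, and the other two held the only MEI4 peaks of the Mei4KO-only class.

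The wild-type MEI4 map differed between the classes in the same direction. MEI4 peaks lay under 466 wild-type-only IHO1 peaks (40.9%, 38.1 to 43.8), 18 shared peaks (4.00%, 2.54 to 6.23) and 2 Mei4KO-only peaks (0.341%, 0.0935 to 1.23). Of all 1566 wild-type MEI4 peaks, 27% had a wild-type IHO1 peak and 1.15% a Mei4KO one. The shared peaks were 36.9 points below the wild-type-only peaks, with a difference of -36.9 (-40.1 to -33.3). Mei4KO-only peaks were lower than shared ones, by a difference of -3.22 points (-5.38 to -1.60). Among hotspot peaks, 8 of 410 with MEI4 were found in Mei4KO (1.95%, 0.992 to 3.80), against 13 of 235 without MEI4 (5.53%, 3.26 to 9.23). That difference of -3.58 points (-7.40 to -0.651) was no longer called in the first 50% of the rows of each list, at -2.11 (-6.96 to 1.19). IHO1 peaks at hotspots were therefore rarely found in Mei4KO whether or not a MEI4 peak had been called there. By heat, 3 of 323 hotspot peaks in the upper 50% of DMC1 values were found and 18 of 322 in the lower 50%, a difference of -4.66 points (-7.79 to -1.97).

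CTCF sites of the wild type held most of the IHO1 peaks of Mei4KO. All CTCF peaks and scores here are of the wild type, and the series has no CTCF sample of Mei4KO. A CTCF peak lay under 243 wild-type-only peaks (21.3%, 19.1 to 23.8), 287 shared peaks (63.8%, 59.2 to 68.1) and 333 Mei4KO-only peaks (56.7%, 52.7 to 60.7). Of all 32676 CTCF peaks, 1.62% had a wild-type IHO1 peak and 1.89% a Mei4KO one. The difference of shared from wild-type-only peaks was 42.4 points (37.3 to 47.3) and that of Mei4KO-only from wild-type-only peaks 35.4 points (30.7 to 40.0). Without hotspot peaks these were 27.9 points (21.7 to 33.9) and 19.8 points (13.9 to 25.5), since 37.1% of the remaining wild-type-only peaks lay at CTCF. Mei4KO-only peaks were -7.19 points (-13.1 to -1.17) from shared ones, but on autosomes alone that was -5.64 (-11.7 to 0.515), and in the wider 50% of peaks it turned to 3.38.

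IHO1 lay at the CTCF peaks with the higher scores in both genotypes. The CTCF score is the authors' own and had a median of 1.92 over all CTCF peaks. Under wild-type-only peaks the median score was 3.05 (2.89 to 3.34), under shared peaks 4.03 (3.86 to 4.15) and under Mei4KO-only peaks 3.66 (3.50 to 3.84). The wild-type-only interval did not overlap the other two. In the top class of 10 by score, 232 of 3267 CTCF peaks had a wild-type IHO1 peak (7.10%, 6.27 to 8.03) and 303 had a Mei4KO peak (9.27%, 8.33 to 10.3). In the strongest 25%, the shares were 4.43% in the wild type and 5.62% in Mei4KO, and in the weakest 25% they were 0.355% and 0.208%. Unlike the hotspots, then, strong CTCF peaks had at least as many IHO1 peaks in the Mei4KO list as in the wild-type list, although the Mei4KO list is the shorter.

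**Figure D3:**
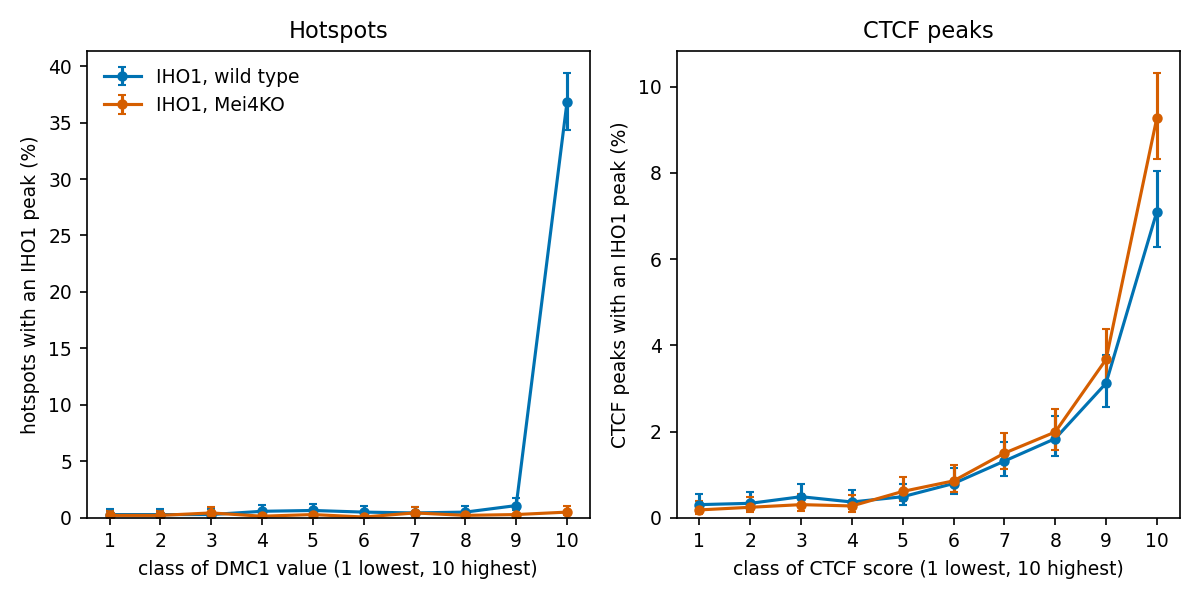
Share of hotspots (left) and of CTCF peaks (right) with an IHO1 peak (vertical axes, percent) in 10 equal classes of DMC1 value or CTCF score (horizontal axes), with Wilson 95% intervals. At hotspots the top class reaches 36.8% in the wild type and 0.507% in Mei4KO, while at CTCF peaks both lines rise with the score, to 7.10% and 9.27%.

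By the rule for named sites, the shared peaks with the highest CTCF scores began with chr9:124256301-124257955 (score 31.4). It was in 20 of the 21 lists of the axis proteins, MEI4 and IHO1, counting the 2 IHO1 lists that define the class. The second, chr17:3083042-3083814 (13.1), was in 19 lists, and the fourth, chrX:169992914-169997227 (11.2), in all 21. The first and the fourth lay in the last 1 Mb of chromosomes 9 and X. Reads there cannot be assigned with certainty, as is said below for the distal ends. Beyond the lists that defined the classes, 9 shared peaks, 5 wild-type-only peaks and 0 Mei4KO-only peaks were in 15 or more of the 19 other protein lists. The other named shared sites, chr13:13888829-13890217 (13.05) and chr1:88286988-88288711 (8.37), were in 13 and 7 lists. Mei4KO-only peaks with the highest scores lay at chrX:75672517-75675270 (13.5), chr7:135734655-135736542 (9.80), chr2:147176881-147179457 (9.74) and chr2:148901388-148903162 (9.31). The third of them overlapped Nkx2-2, a homeobox gene of the ventral neural tube. These 4 all had a HORMAD1 peak in Mei4KO, 2 of them also in the wild type. A Mei4KO HORMAD1 peak lay at 52.6% of all Mei4KO-only peaks and at 10.5% of all CTCF peaks.

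HORMAD1, the axis protein that binds IHO1, was mapped in both genotypes. Its wild-type peaks lay under 667 wild-type-only (58.6%, 55.7 to 61.4), 314 shared (69.8%, 65.4 to 73.8) and 238 Mei4KO-only IHO1 peaks (40.5%, 36.6 to 44.6). Of all 1715 wild-type HORMAD1 peaks, 54.7% had a wild-type IHO1 peak and 31.9% a Mei4KO one. The Mei4KO HORMAD1 list was longer, with 5275 peaks, and its own share with an IHO1 peak was not computed. A longer list can overlap more peaks of every class. The Mei4KO HORMAD1 peaks lay under 199 wild-type-only (17.5%, 15.4 to 19.8), 244 shared (54.2%, 49.6 to 58.8) and 309 Mei4KO-only peaks (52.6%, 48.6 to 56.6). The difference of Mei4KO-only from wild-type-only peaks was -18.0 points (-22.8 to -13.1) for wild-type HORMAD1 and 35.2 points (30.5 to 39.7) for Mei4KO HORMAD1. Without hotspot peaks the first of these shrank to -0.176 points (-6.03 to 5.67) and the second to 19.9 points (14.0 to 25.6). Shared peaks exceeded wild-type-only peaks at wild-type HORMAD1 by 11.2 points (5.99 to 16.2), or 28.3 points (22.1 to 34.2) without hotspot peaks. In the wider 50% of peaks this difference was -3.64 points (-12.6 to 4.86).

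Sites without IHO1 in Mei4KO were often also without HORMAD1 there. Over all wild-type HORMAD1 peaks, 33.6% were found in the Mei4KO HORMAD1 list. Of the wild-type-only IHO1 peaks with wild-type HORMAD1, 81 of 667 also had a HORMAD1 peak in Mei4KO (12.1%, 9.88 to 14.8), and of the shared ones 177 of 314 (56.4%, 50.8 to 61.7). At hotspots, 10 of 455 wild-type-only peaks kept HORMAD1 (2.20%, 1.20 to 4.00). Away from hotspots the shares were 33.5% for wild-type-only and 56.7% for shared peaks. That difference of 23.2 points (14.5 to 31.4) was 11.5 points (-3.29 to 25.6) in the wider 50% of peaks. Among Mei4KO-only peaks, 183 had HORMAD1 in Mei4KO alone, 126 in both genotypes, 112 in the wild type alone and 166 in neither. Mei4KO-only IHO1 peaks thus lay both where HORMAD1 was listed only in Mei4KO and where it was listed in the wild type already. The count for Mei4KO alone draws on the longer of these HORMAD1 lists.

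For wild-type peaks away from hotspots, CTCF and HORMAD1 went with being found in Mei4KO. Away from hotspots means only that a peak overlapped no hotspot. Of these peaks, 85 of 515 wild-type-only and 5 of 429 shared ones lay within 1 kb of a hotspot. The shares without these near peaks were not computed. Of those at a CTCF peak, 279 of 470 were found (59.4%, 54.9 to 63.7), against 150 of 474 of the others (31.6%, 27.6 to 36.0), a difference of 27.7 points (21.5 to 33.6). With wild-type HORMAD1, 298 of 510 were found (58.4%), and without it 131 of 434 (30.2%), a difference of 28.2 points (22.0 to 34.1). Peaks with both features were found most often, at 208 of 284 (73.2%, 67.8 to 78.1). Peaks with CTCF alone reached 38.2% (71 of 186), with HORMAD1 alone 39.8% (90 of 226), and with neither 24.2% (60 of 248). Within those at CTCF, 69.8% of the upper 50% by score were found and 48.9% of the lower 50%, a difference of 20.9 points (12.0 to 29.2). This was 14.5 points (-2.11 to 30.0) in the wider 50% of peaks. CTCF peaks seldom coincided with hotspots, 3.61% of all CTCF peaks doing so. At hotspots, 8 of 60 peaks with CTCF were found (13.3%, 6.91 to 24.2), and 13 of 585 without it (2.22%, 1.30 to 3.76).

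**Figure D4:**
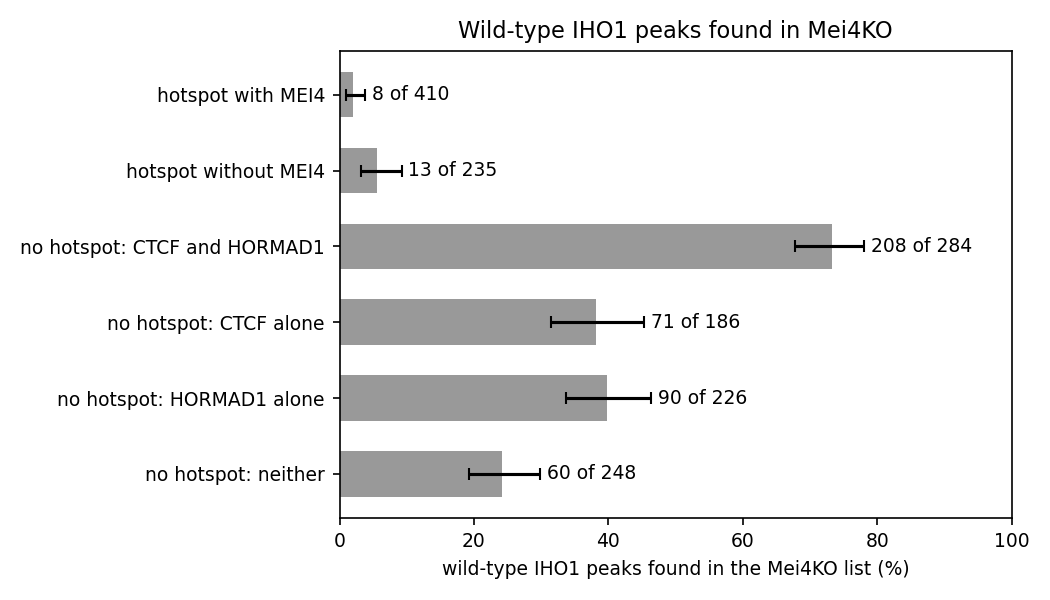
Share of wild-type IHO1 peaks found in the Mei4KO list (horizontal axis, percent) by wild-type features of the site (vertical axis), with Wilson 95% intervals and counts beside the bars. The bars of hotspot peaks, split by MEI4, are at 1.95% and 5.53%, and peaks away from hotspots run from 24.2% with neither CTCF nor HORMAD1 to 73.2% with both.

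Wild-type peaks of SYCP3, the other axis protein mapped, lay under 706 wild-type-only peaks (62.0%), 221 shared peaks (49.1%) and 176 Mei4KO-only peaks (30.0%). In the Mei4KO SYCP3 list these counts were 70 (6.15%), 183 (40.7%) and 146 (24.9%). That list is the shorter, with 1125 peaks against 1911 in the wild type. For neither list was the share of all SYCP3 peaks with an IHO1 peak computed. Over all wild-type SYCP3 peaks, 16.4% were found in the Mei4KO list. At wild-type SYCP3, shared peaks differed from wild-type-only peaks by -12.9 points (-18.2 to -7.45), but without hotspot peaks the sign turned, to 12.7 points (6.37 to 18.9). At Mei4KO SYCP3, shared peaks were higher by 34.5 points (29.8 to 39.3), and by 29.5 points (24.0 to 34.8) without hotspot peaks. Shared peaks also exceeded Mei4KO-only ones there, which differed from them by -15.4 points (-21.1 to -9.69).

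Gene ends were a minor part of each class. Within 1 kb of either end of a protein-coding gene lay 206 wild-type-only (18.1%), 105 shared (23.3%) and 147 Mei4KO-only peaks (25.04%). The share of all gene ends with an IHO1 peak was not computed. Shared peaks differed from wild-type-only peaks by 5.25 points (0.892 to 9.89), but by -4.22 points (-9.65 to 1.31) without hotspot peaks and by 18.3 points (9.67 to 27.0) in the wider 50% of peaks. Promoter windows lay under 76 (6.67%), 53 (11.8%) and 64 (10.9%) peaks of these classes. Of all 32851 promoter windows, 0.499% had a wild-type and 0.454% a Mei4KO IHO1 peak. From a list of 46 early meiotic genes, 3 had a wild-type IHO1 peak in or within 1 kb of the gene (6.52%, beside 3.59% of 21887 coding genes) and 1 had a Mei4KO peak (2.17%, beside 2.57%). The 3 were Bhmg1 (Meiosin), a partner of STRA8 in entering meiosis, Gm960 (Top6bl), a subunit of the SPO11 complex, and Zcwpw1, a reader of the marks PRDM9 writes. The gene with the Mei4KO peak was Rec114, whose protein is MEI4's own partner, and it had no wild-type IHO1 peak.

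The ends of 4 chromosomes were another place where IHO1 was listed in the wild type but rarely in Mei4KO. The last 1 Mb of chromosomes 4, 9, 13 and X, counted back from the last gene or site listed on each and chosen after the data were seen, held 102 wild-type IHO1 peaks and 9 Mei4KO peaks, 1 of them Mei4KO only. Chromosome 9 had 63 of the 102, between 123673016 and 124494878, X had 21, chromosome 4 had 13 and chromosome 13 had 5. Of the 9 Mei4KO peaks, X had 7 and chromosomes 4 and 9 had 1 each. On the other chromosomes the last 1 Mb held 2 peaks on chromosome 19, 14 on Y and 0 elsewhere. The end of Y was not among those chosen, and 6 of its 14 peaks were found in Mei4KO. These distal ends are known to carry tandem repeats, and X and Y share a pseudoautosomal region, so reads from near-identical copies cannot be assigned to 1 copy with certainty. Only 12 of the 102 lay at hotspots, whereas 55 had a MEI4 peak. Of the 90 away from hotspots, 5 were found in Mei4KO (5.56%), against 424 of 854 elsewhere (49.6%), a difference of -44.1 points (-48.7 to -36.5). Counting those at hotspots, 6 of the 102 were found in Mei4KO (5.88%, 2.72 to 12.2), and 4 of these 6 were among the 21 on X.

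The same 102 distal peaks were listed more often in the other knockouts. In Prdm9KO 77 were found (75.5%, 66.3 to 82.8), in Spo11KO 50 (49.0%, 39.5 to 58.6) and in Hormad1KO 23 (22.5%, 15.5 to 31.6). On chromosome 9 the counts were 57, 41 and 13 of 63, and 1 in Mei4KO. At the end of X they were 11, 6 and 8 of 21, and 4 in Mei4KO. HORMAD1 peaks lay under 60 of the 102 in the wild type and 19 in Mei4KO, and SYCP3 peaks under 60 and 9. Distal peaks were wider, with a median of 2942 bp, than the rest, with 2235 bp. They had MEI4 more often than the rest by 25.1 points (15.1 to 34.7), a difference that fell to 6.44 points (-5.60 to 18.6) among the wider 50% of peaks.

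**Figure D5:**
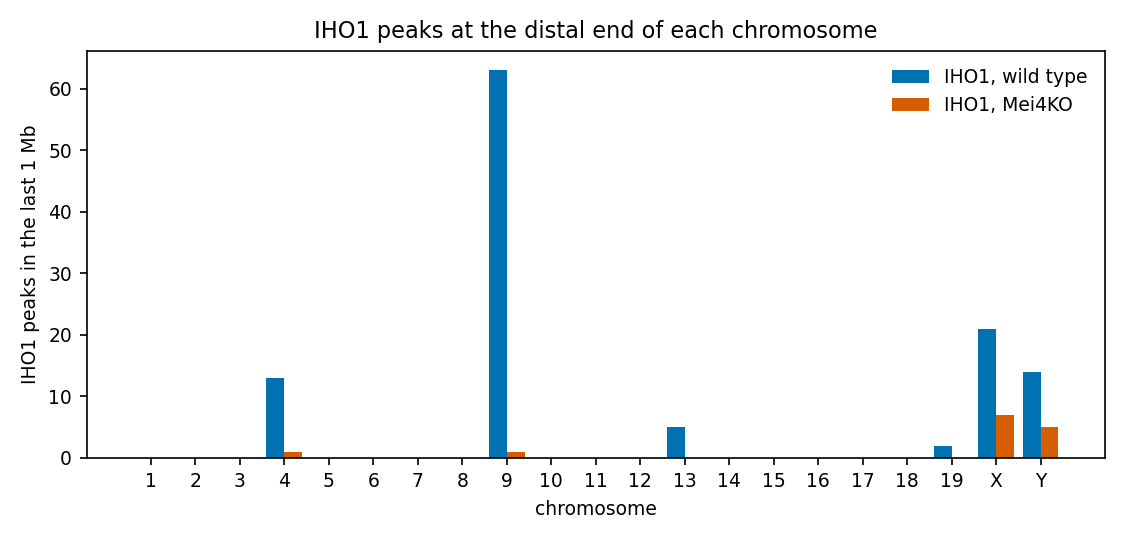
Number of IHO1 peaks (vertical axis, a count) in the last 1 Mb of each chromosome (horizontal axis) in the wild type and in Mei4KO. Chromosomes 4, 9, 13 and X hold 102 wild-type peaks, 63 of them on chromosome 9, and 9 Mei4KO peaks, 7 of them on X. Most other chromosomes hold none.

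Most IHO1 peaks with MEI4 but no hotspot lay at those ends, 51 of 74. Of the 74, 10 were found in Mei4KO (13.5%), against 419 of 870 peaks with neither (48.2%), a difference of -34.6 points (-41.5 to -24.5). Outside the ends of chromosomes 4, 9, 13 and X 23 remained, of which 7 were found (30.4%), 5 of those on Y, against 417 of 831 without MEI4 (50.2%). Without the last 1 Mb of every chromosome, Y included, 2 of 17 were found (11.8%) against 416 of 823 (50.5%), a difference of -38.8 points (-47.9 to -16.0). On X, 20 of 60 peaks away from hotspots were found, against 403 of 869 on autosomes, a difference of -13.04 points (-24.2 to -0.00928). It was -9.22 points (-23.6 to 6.71) without the distal ends and was then not called. The call was also lost with 1 kb windows (-19.6 to 3.14), in the wider 50% of peaks (-29.2 to 7.24) and in the first 50% of rows (-24.7 to 5.43). X held 98 wild-type peaks and 25 Mei4KO peaks, 3 of them Mei4KO only. By autosome, the share of wild-type peaks found in Mei4KO ran from 15.6% to 41.2%.

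The IHO1 lists of the other knockouts share the wild-type list with this comparison and are given beside it. Of the 410 hotspot peaks with MEI4, 1.95% were found in Mei4KO and 1.46% in Prdm9KO, and 79.3% in Spo11KO and 81.5% in Hormad1KO. Of the 235 hotspot peaks without MEI4, 5.53% were found in Mei4KO, 2.98% in Prdm9KO, 51.9% in Spo11KO and 48.9% in Hormad1KO. Of the 470 peaks at CTCF and away from hotspots, 59.4% were found in Mei4KO, 34.0% in Prdm9KO, 43.0% in Spo11KO and 4.04% in Hormad1KO. Hotspot peaks were thus listed in Spo11KO and Hormad1KO in larger shares than in Mei4KO and Prdm9KO, and the share of CTCF peaks was lowest in Hormad1KO. The lists differ in length (378 peaks in Prdm9KO, 1860 in Hormad1KO and 2681 in Spo11KO), and their thresholds are not given in the sources used here.

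Mei4KO-only peaks were nearly absent from the IHO1 list of Hormad1KO. There 7 of 587 were found (1.19%, 0.579 to 2.44), against 469 of 1139 wild-type-only peaks (41.2%) and 26 of 450 shared peaks (5.78%). The difference of Mei4KO-only from wild-type-only peaks was -40.0 points (-42.9 to -36.9). It was not computed without hotspot peaks, which were 54.8% of the wild-type-only class. Among all wild-type peaks away from hotspots, Hormad1KO held 4.04% of those at CTCF and 5.70% of the others. In Spo11KO 194 Mei4KO-only peaks were found (33.0%) and 527 wild-type-only peaks (46.3%), a difference of -13.2 points (-17.9 to -8.37). In the first 50% of the rows that difference was -0.362 (-6.96 to 6.17). It was also not computed without hotspot peaks. Away from hotspots, Spo11KO held 43.0% of all wild-type peaks at CTCF and 31.2% of the others. In Prdm9KO the counts of Mei4KO-only and wild-type-only peaks were 71 (12.1%) and 108 (9.48%), and the difference of 2.61 points (-0.406 to 5.90) was not called. Without the last 1 Mb of each chromosome it was 9.31 points (6.63 to 12.3).

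Most Mei4KO-only peaks overlapped HORMAD1 in some genotype, and fewer overlapped IHO1 of another knockout. Of the 587, 530 overlapped a HORMAD1 peak of at least 1 genotype (90.3%), beside 81.3% of wild-type-only and 95.3% of shared peaks. An IHO1 peak of another knockout lay at 225 (38.3%), the lowest share of the 3 classes, beside 58.6% of wild-type-only and 70.4% of shared peaks. No peak of the 19 other protein lists lay at 19 Mei4KO-only (3.24%), 58 wild-type-only (5.09%) and 6 shared peaks (1.33%). HORMAD1 peaks of Iho1KO lay under 67.0% of the Mei4KO-only peaks, of Spo11KO under 64.6% and of Prdm9KO under 38.2%. These HORMAD1 lists differ in length, with 3149, 2897 and 1009 peaks in that order, and their own shares with an IHO1 peak were not computed. For wild-type-only peaks the Iho1KO share was 24.8% and for shared peaks 74.2%. HORMAD1 was thus listed at most Mei4KO-only sites also in mice without IHO1. The median Mei4KO-only peak was in 5 other lists, the median wild-type-only peak in 6 and the median shared peak in 7.

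Few Mei4KO-only peaks lay right beside a wild-type IHO1 peak. Their median distance to the nearest wild-type IHO1 peak was 472 kb, with 9 of 587 closer than 1 kb, and the 254 without a CTCF peak lay a median of 11.8 kb from the nearest one. Wild-type-only peaks lay a median of 647 kb from the nearest Mei4KO peak. Distances for peaks placed at random were not computed, so these medians cannot be called large or small. Assigned to the first feature that held, the Mei4KO-only peaks divided into 21 at hotspots, 5 within 1 kb of one, 1 distal, 319 at CTCF, 154 at HORMAD1 of either genotype, 40 at gene ends and 47 at none of these. The wild-type-only peaks divided in the same order into 624, 85, 83, 174, 90, 42 and 41. Peaks were wider in the wild-type-only class, with a median of 2532 bp (2363 to 2688), than in the shared class, with 1908 bp (1798 to 2101), and the Mei4KO-only class, with 1932 bp (1839 to 2076). The widest of each class spanned 25537 bp at chr13:119622663-119648199 with the chemokine gene Ccl28 (wild-type only), 18604 bp at chr7:16476010-16494613 with Arhgap35 and Npas1, a transcription factor gene (shared), and 18076 bp at chr4:126843397-126861472 with AU040320 (Mei4KO only).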

How the data were processed

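The submitters' processing notes name Bowtie2, MACS2 and the mm10 build for the authors' peak lists, with no role, order or version. Per the series' design text, each protein's own knockout was subtracted. The IHO1, MEI4, HORMAD1 and SYCP3 lists hold positions only. The DMC1 list carries a deposited signal value per hotspot, in an unnamed unit, where every value is a multiple of 0.5. The CTCF list carries a deposited score per peak, with 192 of 32676 scores below 0. Both were used only to rank or describe sites within their list.

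Overlap meant 1 bp or more, and a peak away from hotspots was any peak that overlapped no hotspot, however near. Shares have Wilson 95% intervals, differences Newcombe 95% intervals, and medians exact binomial ones (Python 3.11.15, numpy 2.4.6, scipy 1.17.1), and the code was tested on simulated intervals. There are no p-values, since each group has 1 list. A site with several hotspots or CTCF peaks took the highest value. Genes and promoters come from RefSeq tables of GRCm38.p6, whose gene table gives no strand. All 46 early meiotic genes were matched.

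Named sites were the 5 wild-type-only peaks with the highest DMC1 value, the 5 shared and 5 Mei4KO-only peaks with the highest CTCF score, the 3 of each of these with the highest DMC1 value, and the widest of each class, with chromosome 18 left out. Of these, 1 site named by this rule is not reported here. Alternatives were autosomes only, a stricter overlap (50% of the shorter interval), IHO1 peaks cut to 1 kb around their middle, a gap of up to 1 kb, the wider 50% of peaks, the upper 50% of hotspots or CTCF peaks, peaks away from hotspots or gene ends, and 10 classes of value in place of 4. Classes and lists were chosen with earlier results of these data known. The results on distal ends and X, and those on MEI4 and kept HORMAD1 away from hotspots, were added after seeing the data. So were the first 50% of rows, the removal of chromosome ends and the promoter windows. Besides the 2 IHO1 lists, 21 lists of IHO1, MEI4, HORMAD1, SYCP3, CTCF and DMC1 entered, and the remaining groups were not used here.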

Additional observations from a re-analysis of the deposited data

How the results depend on the processing

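Of 33 called differences, 20 kept their direction and their call under every alternative run. The 33 count in the differences added after the data were seen, on distal ends, X, and MEI4 and kept HORMAD1 away from hotspots. For these, a call is no independent support. These 20 include the differences between wild-type-only peaks and the other classes at hotspots, MEI4, CTCF, Mei4KO HORMAD1 and Mei4KO SYCP3. Over all results, 343 of 395 alternative values kept the direction and the side of the call or, for values with no call, stayed within the reported 95% interval. Within that, sizes could move far, as from 35.4 to 19.8 points for Mei4KO only minus wild-type only at CTCF without hotspot peaks.

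Without hotspot peaks, Mei4KO-only minus wild-type-only differences were -0.176 points at wild-type HORMAD1, -5.30 at wild-type SYCP3 and -2.22 at gene ends, and shared minus wild-type-only ones were 12.7 at wild-type SYCP3 and -4.22 at gene ends. With an overlap of 50% of the shorter interval, gene ends gave -1.87 points for Mei4KO only minus shared and 1.89 for Mei4KO only minus wild-type only. With promoter windows in their place, the former was -0.233. On autosomes alone, Mei4KO only minus shared was 0.673 at Mei4KO HORMAD1 and -5.64 at CTCF, and the Prdm9KO difference was 3.05. At CTCF that contrast was -5.83 with a gap of up to 1 kb and -5.64 without gene ends. The X difference was -9.27 with 1 kb windows at peak centres and -9.22 without the last 1 Mb, not called in either. Without the last 1 Mb, the Prdm9KO difference was 9.31. The 10 classes gave 36.8% for wild-type hotspots, and 7.10% and 9.27% for CTCF.

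In the wider 50% of each list, 18.1% of wild-type and 27.6% of Mei4KO peaks were found. Differences were -15.6 points for X, which was not called, 11.5 for kept HORMAD1, 6.44 for distal MEI4, 14.5 for the CTCF score split, -7.02 and 3.38 for Mei4KO only minus shared at gene ends and CTCF, -3.64 for shared minus wild-type only at wild-type HORMAD1, and 8.14 for Prdm9KO. Calls were kept but sizes moved for shared minus wild-type only at gene ends (18.3), MEI4 away from hotspots (-20.3), HORMAD1 away from hotspots (17.4) and Mei4KO only minus shared at wild-type HORMAD1 (-13.7). Median CTCF scores were 2.68 (wild-type only), 3.67 (shared), 3.70 (shared, Mei4KO intervals) and 3.94 (Mei4KO only), and median widths 4543, 3659.5, 3482 and 2824 bp.

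In the first 50% of rows, whose order is not explained, 23.2% of wild-type and 35.3% of Mei4KO peaks were found. Differences were -11.2 points for X, which was not called, -2.11 for MEI4 at hotspots, 13.7 for the score split, 4.90 and 5.91 for shared minus wild-type only at gene ends and wild-type HORMAD1, -2.10 for Mei4KO only minus shared at CTCF, 13.6 for Prdm9KO and -0.362 for Spo11KO. The call was kept at -7.10 for Mei4KO only minus shared at MEI4 and 28.7 for Mei4KO only minus wild-type only at Mei4KO SYCP3. The median DMC1 value was 4838 for wild-type-only and 108.5 for shared peaks, the Mei4KO-only median CTCF score 4.06, and the median widths 3387 bp for wild-type-only and 2440.5 and 2454 bp for shared peaks. The cause of these changes was not tested.

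No paired analysis was possible because each group has 1 list, which also leaves no replicate to leave out. Depth and peak thresholds are unknown, and a peak just under a list's threshold cannot be told apart from an absent one.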
